A study of Sus scrofa with 40 samples.

Results

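In cultures of pig coronary endothelial cells, the difference in ACTA2 between regenerated and native cells ranged from a fall to a very large rise, and a set of 200 probe sets moved with it from pair to pair. ACTA2 encodes the alpha actin of vascular smooth muscle. The 200 were chosen by their paired differences: they are the probe sets whose regenerated minus native differences had the highest Pearson correlation with those of ACTA2 over 20 pairs of cultures, with ACTA2 itself left out. They were taken from 17999 probe sets that passed a filter on dim signal, of 24123 on the array table, so all 200 members passed that filter by construction. Because these values chose the members, every value of the members' differences below is a description, and no test of them is read.

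The data are Affymetrix porcine genome arrays of primary endothelial cultures from female farm pigs aged 4 months. Native cells had been scraped from the left circumflex artery (LCX), and regenerated cells from a previously denuded stretch of the left anterior descending artery (LAD), where the lining had grown back. There were 8 control pairs, 6 pairs from animals fed high cholesterol (CHL) and 6 pairs from animals of the PUFA-rich (FO) group, which the series title calls fish oil-rich, with 1 native and 1 regenerated culture in each pair and 40 arrays in all. All cultures, native ones included, were grown for 10 days at passage zero in medium with serum, and each regenerated culture came from another artery than its native partner, so culture status and artery cannot be told apart.

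ACTA2 is abundant in smooth muscle cells and in myofibroblasts, where it is switched on with other contractile genes through serum response factor and its cofactors of the myocardin family. Endothelial cells normally have little of it, and it is a common marker of endothelial cells that take on mesenchymal features. A scraped primary culture can also hold a few smooth muscle cells or fibroblasts. In bulk cultures such as these, more cells of one type and more RNA per cell cannot be told apart.

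Signals are given as log2(signal + 16), and differences are on that scale, which understates the changes of dim probe sets. A signal depends on the probes as well as on the transcript, so levels are compared between arrays and not between genes. The probe set counted as ACTA2 carries the title vascular smooth muscle alpha-actin in the deposited tables, with the older symbol ACT-4, while its cluster description calls it highly similar to actin gamma 2 of smooth muscle. The 2 actins may share probes, so the signal may not be ACTA2 alone.

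On all 40 arrays CDH5, the cadherin of endothelial junctions, lay between 12.54 and 13.46, and PECAM1, an endothelial adhesion molecule, between 12.13 and 13.33. The probe set for VWF, the von Willebrand factor stored by endothelial cells, was dim throughout, from 5.46 to 6.85. Every array had been scaled to a 2% trimmed mean of 500.1. Ratios of 3' to 5' signal, which rise as RNA degrades, were at most 6.89 for the actin control and 1.82 for the GAPDH control on 38 arrays. They passed a limit of 10 on the regenerated arrays of control 6 and FO 3. The actin ratio was also higher in the regenerated than in the native array of control 5 (6.89 against 1.43), control 4 (4.48 against 1.39), control 2 (3.15 against 1.34), FO 1 (2.79 against 1.65), control 7 (2.68 against 2.11) and FO 6 (3.57 against 3.05). These 6 pairs and control 6 are among the 8 pairs of ACTA2 shift over 3 described below, and in control 1, the last of the 8, the ratio was 1.33 against 1.48. In the other pairs apart from FO 3 it was 1.47 to 3.86 in regenerated and 1.47 to 3.39 in native arrays. The part of RNA quality in the members' shift was not tested beyond leaving out control 6 and FO 3, which gave the members a median correlation of 0.850 with ACTA2. The 2 labels of FO pair 6 give different animal numbers, and in 5 control pairs the labels leave it unstated whether both cultures came from 1 animal. In 17 of 20 pairs, deviations of both arrays from their group means correlated above 0.1, with a median of 0.51 over all pairs. The other pairs were control 4 (-0.12), control 5 (-0.03) and FO 6 (-0.23), which are also the pairs with the largest ACTA2 shifts, so values without them are given below.

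ACTA2 was higher in the regenerated culture in 12 of 20 pairs, with a mean difference of 1.83 ± 2.85 (SD, n = 20) and a median of 0.60. In control pairs the native level had a lowest, median and highest value of 5.95, 7.75 and 13.49, against 7.70, 12.99 and 14.21 in regenerated cells. In CHL pairs these were 8.26, 9.94 and 12.80 in native cells and 7.81, 9.41 and 13.26 in regenerated cells. In FO pairs they were 7.54, 9.31 and 11.55 in native cells and 7.05, 11.48 and 14.01 in regenerated cells. Levels of the 2 culture kinds overlapped in every diet.

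The differences fell into 2 ranges with none between. In 8 pairs ACTA2 was higher by over 3 log2 units, namely control 5 (8.26), control 4 (6.69), FO 6 (5.92), control 6 (4.07), control 7 (4.03), control 2 (3.84), control 1 (3.16) and FO 1 (3.14). In the other 12 pairs the difference lay within 1.5 of 0, from -1.41 in CHL 3 to 0.70 in FO 3. All 6 CHL pairs were in this narrow range, with 4 of the FO pairs and with control 3 (-1.09) and control 8 (-0.01). Control 8 had high ACTA2 in both cultures, 13.49 in native and 13.48 in regenerated cells. On the linear scale, the signal in control 5 was 45.7 in native and 18924 in regenerated cells.

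**Figure D1:**
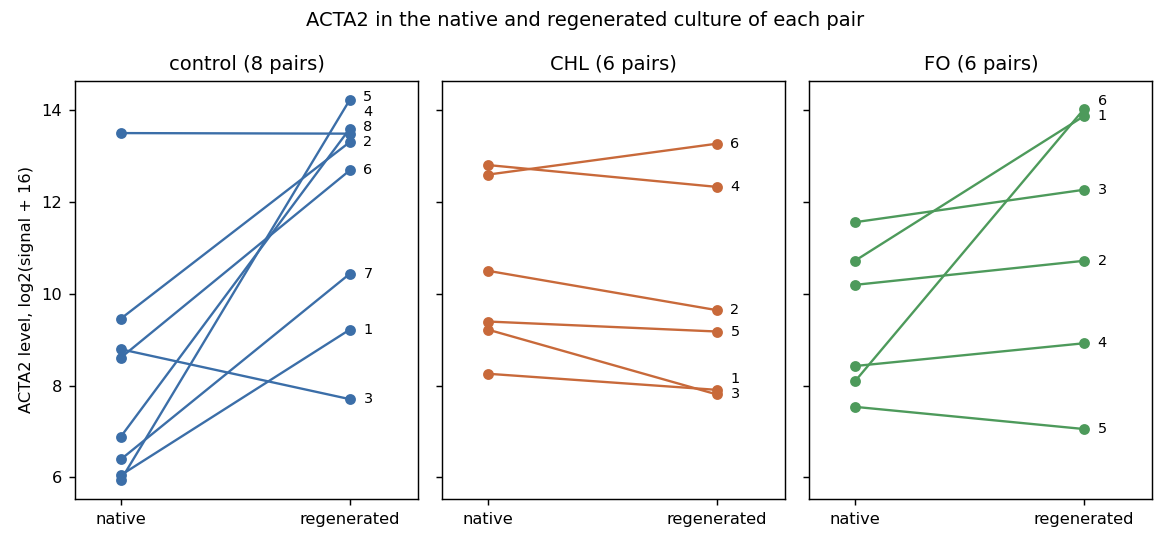
ACTA2 level, as log2(signal + 16), in the native and the regenerated culture of each pair, with 1 line per pair, its number at the right end, and 1 panel per diet. Lines rise steeply in 6 of 8 control pairs and in FO 1 and FO 6, and stay within 1.5 of level in all CHL pairs.

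Correlations of the members with the ACTA2 difference ran from 0.824 to 0.934, with a median of 0.847. Over all probe sets tested the median was 0.005, and 3042 probe sets had a correlation of at least 0.5, so the 200 are the upper end of a much wider group. No gap set them apart. The 5 members just inside had correlations of 0.82463, 0.82458, 0.82457, 0.82432 and 0.82409, and none of them has a gene title. The 5 probe sets just outside had 0.82407, 0.82389, 0.82378, 0.82375 and 0.82352, and one of these is BDNF, a neurotrophin. One axis held 36.3% of the variance of the paired differences over all probe sets, and its correlation with the ACTA2 shift had a size of 0.851.

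All 200 members were higher in the regenerated culture of control 5, control 4 and FO 6, with a mean over the members of 2.33, 2.17 and 1.84. In control 6, whose regenerated array had degraded RNA, 199 were higher with a mean of 1.31. The remaining pairs with an ACTA2 shift over 3 had at least 171 members higher and means from 0.64 to 0.79. In the 12 pairs with an ACTA2 difference within 1.5 of 0, the members as a set were mostly near level or lower. In FO 5 only 23 of 200 were higher, in CHL 1 only 18, with a mean of -0.74, and in CHL 3 only 34. ACTA2 differed by -0.48 in FO 5, by -0.35 in CHL 1 and by -1.41 in CHL 3, its lowest value. CHL 5 went the other way, with 183 of 200 higher and a mean of 0.62 although ACTA2 differed by -0.22 there.

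**Figure D2:**
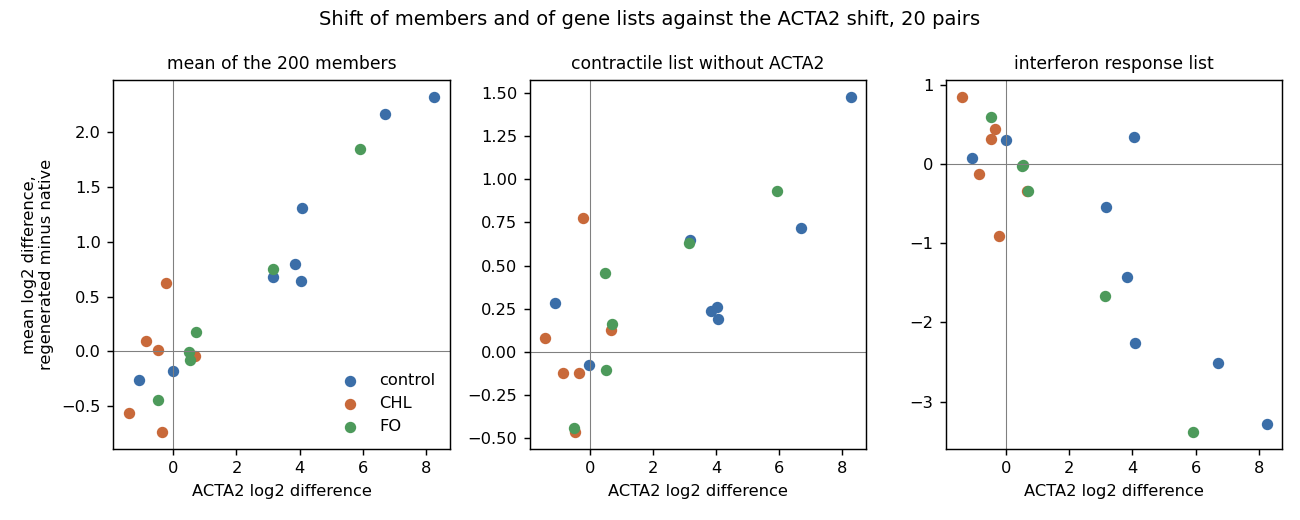
Mean regenerated minus native log2 difference of the 200 members (left), of the contractile list without ACTA2 (middle) and of the interferon response list (right) against the ACTA2 log2 difference, with 1 point per pair coloured by diet. The members, chosen for this relation, reach 2.33 in control 5. The interferon list lies lowest, between -3.39 and -2.52, in the 3 pairs of largest ACTA2 shift.

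Part of the correlation came from the pairs of largest ACTA2 shift. By Spearman's rank correlation the members' median was 0.774. Without control 5 and control 4, the pairs farthest from the median ACTA2 shift, it was 0.753. Without control 4, control 5 and FO 6 it was 0.677, still with 200 of 200 members above 0, against -0.004 for all probe sets. With each diet centred on its own mean it was 0.817. Within control pairs the median was 0.904 and within FO pairs 0.917. Within CHL pairs, where ACTA2 spanned only -1.41 to 0.67, it was 0.243, and 161 of 200 members were above 0.

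Mean differences followed the diets in the same order as ACTA2. In control pairs the mean difference of a member had a median of 0.85 over the 200, and all 200 means were above 0. In FO pairs the median was 0.33, with 175 means above 0. Without FO 6, the pair whose labels give different animal numbers, the FO median was 0.06, with 117 means above 0. In CHL pairs the median was -0.12, with 63 means above 0. Over all probe sets 47.5% of the means were above 0 in control, 49.5% in FO and 54.2% in CHL pairs. For each log2 unit of ACTA2 shift a member shifted by a median of 0.26 log2 units, from 0.10 to 0.77, so by this slope ACTA2 shifted more than each member.

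Few members can be named. A single gene symbol was found for 39 members, which carry 35 symbols, and 1 more had several symbols. Another 31 had only a title that states a similarity to a protein, 104 were titled as transcribed loci, and 25 were not named in the tables used. The share with 1 symbol was 19.5%, against 15.4% of all probe sets tested. By UniGene cluster, a group of transcript sequences taken for 1 gene, 4 clusters had over 1 member. SDC2 was a member through 3 probe sets and MAGI3 was one through 2. Probe sets of 1 gene are not separate genes in the counts that follow.

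The named members are described by their known roles, starting with genes of actin filaments and of the adhesions that anchor them. TAGLN, the calponin-related actin binder of smooth muscle also called SM22, had a correlation of 0.870 with ACTA2. Its native level in control pairs was 9.98 at the lowest, 11.07 at the median and 13.43 at the highest, against 11.61, 12.47 and 13.11 in CHL pairs and 10.97, 12.13 and 13.13 in FO pairs. The difference of TAGLN was -0.10, 1.07 and 3.27 in control pairs, -0.24, 0.17 and 1.43 in CHL pairs and -0.83, 0.51 and 2.13 in FO pairs, in the same order. TAGLN was higher in regenerated cells in 16 of 20 pairs, and the ranges of the diets overlapped.

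MYL9, a regulatory light chain of the myosin of smooth muscle, had a correlation of 0.842 and was higher in 17 of 20 pairs, including 8 of 8 control pairs. Its difference had a lowest, median and highest value of 0.01, 1.25 and 3.02 in control pairs, -0.82, 0.08 and 1.31 in CHL pairs and -0.58, 0.71 and 2.27 in FO pairs. VCL, or vinculin, which links integrin adhesions to actin, had a correlation of 0.892 with small shifts. Its difference was -0.20, 0.68 and 2.02 in control pairs, -0.32, 0.15 and 0.76 in CHL pairs and -0.56, 0.14 and 1.28 in FO pairs. Both genes had their largest values in control pairs, and the diets overlapped for both.

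DSTN, or destrin, which disassembles actin filaments, had a correlation of 0.875 and a highest difference of 1.41, in control pairs. RFLNA, a filamin partner that organises actin, reached 5.01 in control pairs and 3.03 in FO pairs, with a correlation of 0.874. A probe set titled as similar to transforming growth factor beta 1 induced transcript 1, a focal adhesion protein, had a correlation of 0.885 and a highest difference of 2.13. LMCD1, a LIM domain cofactor of transcription, had a correlation of 0.883 and ran from -1.15 to 2.63 in control pairs. MYOZ2, a Z-disc protein of striated muscle, shifted by 0.66 log2 units per unit of ACTA2 and had a highest difference of 6.61, in an FO pair. Other actin-related members, picked out after their values were seen, were 2 probe sets titled as similar to Enah/Vasp-like, which promotes filament growth, and 1 titled as similar to caldesmon 1, an actin binder of smooth muscle.

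The highest correlation of all belonged to SDC2, or syndecan 2, a heparan sulfate proteoglycan of the cell surface, at 0.934. Native SDC2 was 8.12 at the lowest, 9.38 at the median and 12.74 at the highest in control pairs, against 10.20, 11.28 and 12.33 in CHL pairs and 9.84, 10.79 and 11.36 in FO pairs. Its differences were -0.47, 1.31 and 3.72 in control pairs, -0.42, -0.12 and 1.12 in CHL pairs and -0.73, 0.63 and 2.99 in FO pairs. The other SDC2 probe sets had correlations of 0.894 and 0.885. SDC2 was thus higher in 12 of 20 pairs, as ACTA2 was, and its CHL differences spanned 0.

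Other members act in the matrix and at cell contacts. ITGB1, the integrin beta 1 chain, had the smallest slope among the named members, 0.10, with a correlation of 0.837 and a highest difference of 0.96. TIMP2, a tissue inhibitor of metalloproteinases, had a correlation of 0.833 and was higher in 8 of 8 control pairs, by 0.09 at the lowest and 2.12 at the highest. FLRT3, a leucine-rich adhesion molecule, had a correlation of 0.842 and a highest difference of 3.37. MAGI3, a scaffold of cell junctions, had correlations of 0.883 and 0.865 through its probe sets. A probe set titled as similar to lysine hydroxylase 2, which modifies collagen for cross-linking, had a correlation of 0.889, and one titled as similar to connexin 26, a gap junction protein, also had 0.889. Both of these were higher in 6 of 8 control pairs and in 2 of 6 CHL pairs.

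Metabolic enzymes were a further set of named members. PDK4, which restrains pyruvate dehydrogenase, had a correlation of 0.850 and was higher in 7 of 8 control pairs but in 1 of 6 CHL and 2 of 6 FO pairs. ENO3, the muscle enolase of glycolysis, reached 4.89 in control pairs and 1.69 in FO pairs. MAOB, a monoamine oxidase, ran from -2.69 to 0.00 in CHL pairs and reached 3.64 in FO pairs. Probe sets titled as similar to 15-hydroxyprostaglandin dehydrogenase, which inactivates prostaglandins, and to adenosine deaminase had correlations of 0.895 and 0.888. Each of these enzymes was higher in 6 to 8 of 8 control pairs and in 1 to 4 of 6 CHL pairs.

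Among secreted and regulatory members, PROS1 encodes protein S, an anticoagulant cofactor. Its correlation was 0.881, and its differences were -0.32, 0.53 and 1.5 in control pairs, -0.75, -0.54 and 0.45 in CHL pairs and -0.53, -0.08 and 1.78 in FO pairs. CLU, or clusterin, a secreted chaperone, had a correlation of 0.843 and was higher in 14 of 20 pairs. PEG10, an imprinted gene of retrotransposon origin, had a correlation of 0.911, the highest after SDC2 among members with a symbol. Its difference ran from -1.80 to 4.09 in control pairs. FRY, a furry homolog bound to microtubules, was higher in 18 of 20 pairs, and SMARCA2, an ATPase of SWI/SNF chromatin remodelling complexes, in 9. RPL7, a ribosomal protein gene, had a correlation of 0.857. TMEM5, an enzyme of dystroglycan glycosylation, and LOC100157046, a gene titled as similar to praja 1, were lower in 6 of 6 CHL pairs. LOC100154340, whose titles disagree between tetraspanin 6 and a RAB3A interacting protein, was higher in 8 of 8 control pairs and reached 5.46 in an FO pair. FAM189A2 had a correlation of 0.866.

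**Figure D3:**
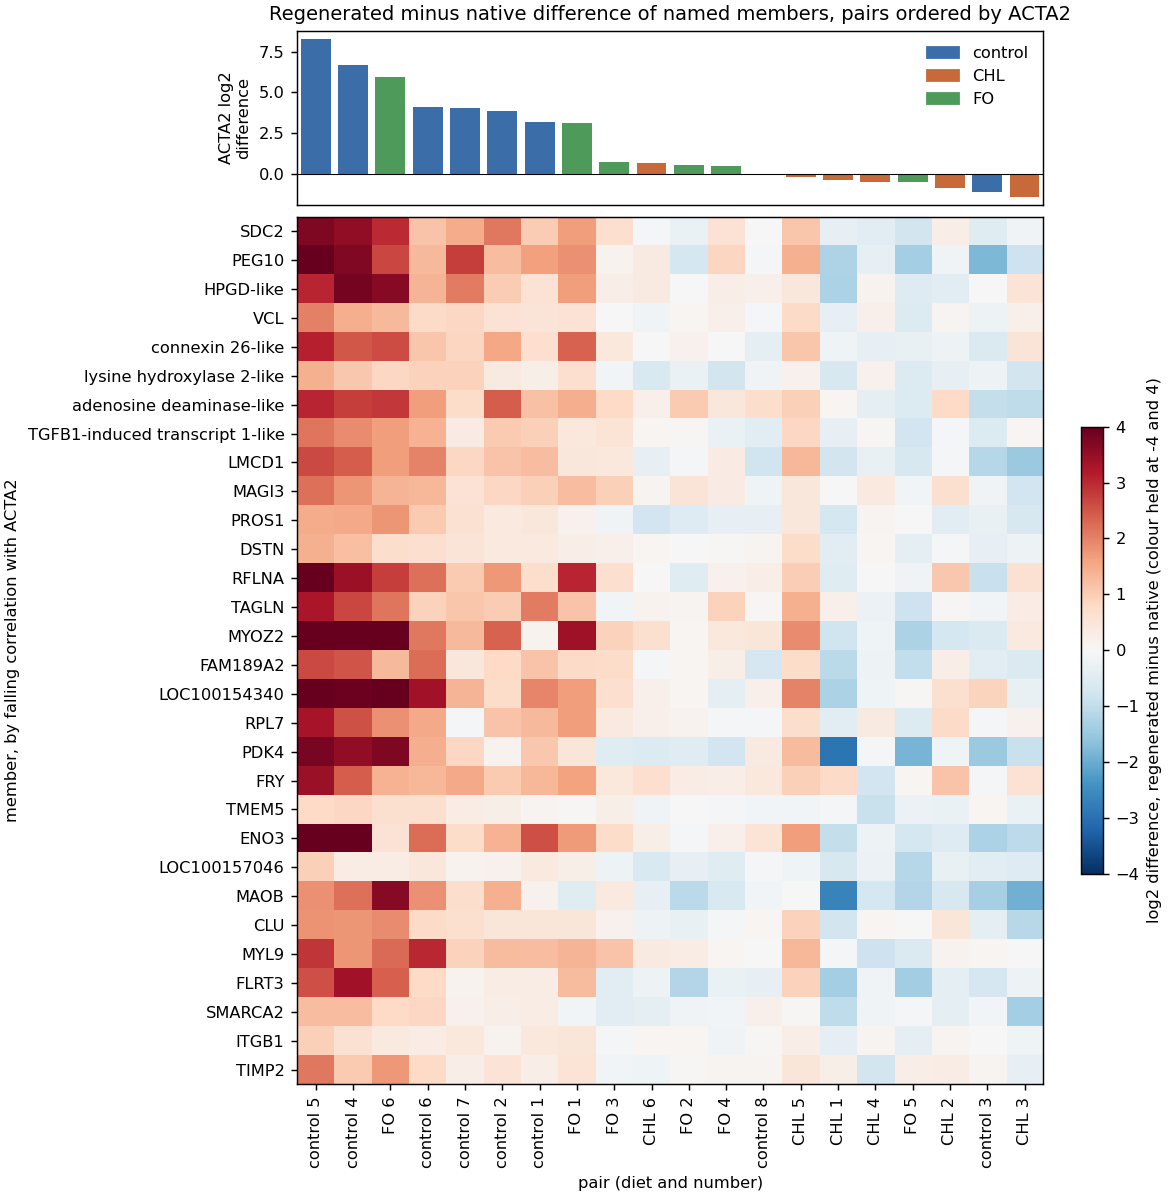
Regenerated minus native log2 difference of named members (rows, by falling correlation with ACTA2) in each of the 20 pairs (columns, ordered by ACTA2), with the ACTA2 difference as bars above. Red cells, higher in regenerated cells, gather in the 8 pairs with an ACTA2 shift over 3, and CHL 5 is red for most members although its ACTA2 bar is near 0.

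In native arrays the members covered a wide range of levels. Their mean native levels ran from 5.18 to 12.95 with a median of 8.65, against a median of 7.95 over all probe sets tested. The spread of a member over the 20 native arrays had a median SD of 0.69, against 0.44 over all probe sets. Named members of lowest native level were LOC100157046 (5.55), MYOZ2 (5.76) and MAOB (6.42), and those of highest level were ITGB1 (12.95), VCL (12.51) and CLU (12.49). The spread is tied to the choice of members, because the native level is part of each paired difference.

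Averaged over the 200 members, the native level was 8.46 ± 0.74 in control pairs (SD, n = 8), 9.02 ± 0.48 in CHL pairs (SD, n = 6) and 8.73 ± 0.41 in FO pairs (SD, n = 6). The regenerated level was 9.40 ± 0.75 in control, 8.91 ± 0.63 in CHL and 9.10 ± 0.73 in FO pairs. In the 3 pairs of largest ACTA2 shift the members' average was between 7.67 and 8.11 in native cells and between 9.95 and 10.03 in regenerated cells. Their regenerated averages were above those of the other 17 pairs, which ran from 7.89 to 9.86, and in native cells the averages of control 5 and control 4 were below the others' range of 8.00 to 9.96, while that of FO 6 lay within it.

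The measure least tied to the choice is the pair mean, the average of the native and the regenerated log2 level of a pair, which is uncorrelated with the difference where both arrays vary alike. For ACTA2 the correlation of mean and difference was 0.11, and over the members its median was 0.10. Across the 20 pair means the members correlated with ACTA2 at a median of 0.665, from 0.223 to 0.908, with 200 of 200 above 0. Over all probe sets the median was 0.017, and 51.6% were above 0. PEG10 reached 0.860, VCL 0.846, ENO3 0.798 and TAGLN 0.789, while CLU had 0.361 and TMEM5 0.387. Pairs with a high average of ACTA2 thus tended to have a high average of the members. A high average need not mean a high level in both cultures. In control 5, for example, ACTA2 was 5.95 in native and 14.21 in regenerated cells. The pair mean uses the same arrays as the difference, so it is not free of the choice. The 200 probe sets of lowest correlation in the paired differences had a median of -0.682 in pair means.

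This relation in pair means moved little with the pairs left out, with a median of 0.685 without control 4, control 5 and FO 6 and 0.655 without the 5 control pairs whose labels leave the animal unstated. Members were also correlated with each other in the pair means, at a mean pairwise correlation of 0.51, against 0.01 over all probe sets. In native arrays alone the members' median correlation with ACTA2 was 0.677, and in regenerated arrays alone it was 0.768. These last values, like the pair means, share arrays with the choice of members. All of these correlations are descriptions over 20 pairs, whose arrays share 1 scaling.

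**Figure D4:**
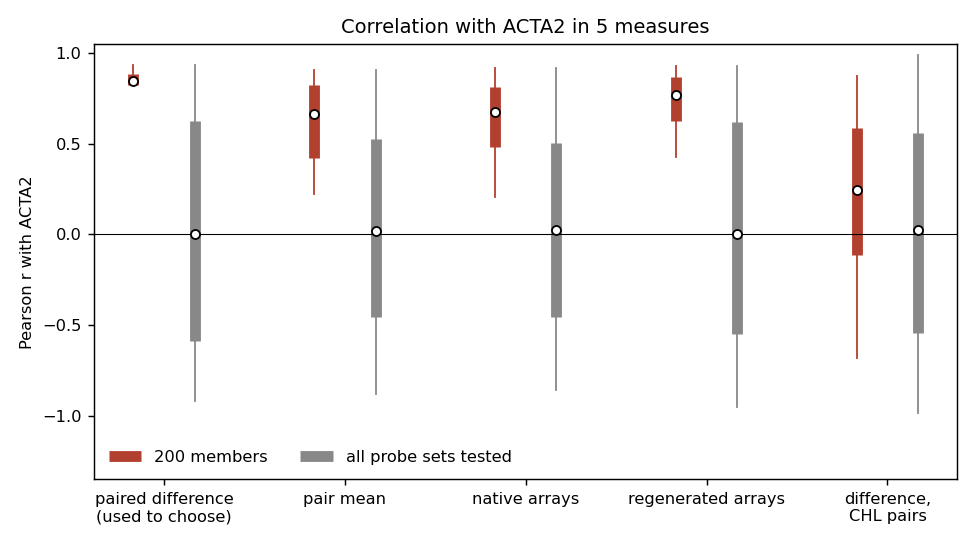
Pearson correlation with ACTA2 for the 200 members (red) and for all probe sets tested (grey) in 5 measures, with thin lines from the lowest to the highest value, thick bars from the 10th to the 90th percentile and open points at the median. In the pair means, the measure least tied to the choice, the members' median is 0.665 against 0.017.

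The pair means also allow a comparison of the diets that does not use the paired differences. No member was called between CHL and control in limma with Benjamini-Hochberg adjustment over 17999 probe sets, and neither was any other probe set (0% called in either direction). At an unadjusted p under 0.05 there were 8 of 200 members, against 11.0% of all probe sets. FO against control gave 0 called members with a background of 0%, and 3 members at an unadjusted p under 0.05, against 7.37% of all. CHL against FO gave 0 called, again with a background of 0%, and 0 members at an unadjusted p under 0.05, against 1.62% of all.

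The sizes behind these tests were small beside their errors. The median log2 difference of the members in pair mean was 0.06 for CHL minus control, -0.03 for FO minus control and 0.05 for CHL minus FO, with a median standard error of 0.30, 0.30 and 0.32. ACTA2 itself was at 10.01 ± 1.92 in control (SD, n = 8), 10.24 ± 2.06 in CHL (SD, n = 6) and 10.28 ± 1.94 in FO pairs (SD, n = 6). Its CHL minus control difference was 0.22 with a standard error of 0.96 (adjusted p = 0.959 in limma). SDC2 had a CHL minus control difference of 0.84 with a standard error of 0.52 (adjusted p = 0.579 in limma). With errors of this size, these values do not show that the diets are alike.

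In limma on the paired differences that chose the members, 11 of 200 were called higher and 0 lower for the mean of the 3 diets, with the pair as a block. Of all probe sets 1.48% were called higher and 1.19% lower. The members' count is a product of their choice and is read no further. Without control 4, control 5 and FO 6, 2 members were called, beside 44 of 17999 probe sets called higher. With the pair left out of the fit 0 members were called, beside 19 probe sets called higher. With 1 pair left out at a time the members' count ran from 2, without CHL 2 or FO 1, to 41, without control 8.

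Other genes of the same processes were read from gene lists, in which each gene is represented by its brightest probe set. Of 10 measured contractile genes besides ACTA2, 8 had a correlation with ACTA2 above 0, with a median of 0.60. CNN1, or calponin, had 0.775, TPM2 and TPM1, the tropomyosins, had 0.698 and 0.638, and DES, the desmin of muscle filaments, had 0.063. PDLIM3, a LIM protein of actin-anchoring sites, went the other way at -0.861. In the mean of diets, 2 of the 10 were called higher and 0 lower in limma, against 1.48% and 1.19% of all probe sets. The 2 called were PLN, the phospholamban that restrains the calcium pump, and MYL9, a member, whose call is a product of its choice. At an unadjusted p under 0.05, 23.4% of all probe sets differed in the mean of diets, against 4 of these 10 genes. Without control 4, control 5 and FO 6 the list's median was 0.31, with CNN1 at 0.567, TPM2 at 0.573, TPM1 at 0.227 and PDLIM3 at -0.686.

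The wider actin list had a median correlation of 0.26 over 19 genes, with VCL the one member on it. Among 14 genes of TGF-beta signalling and mesenchymal transition the median was 0.20, from -0.69 for SMAD3, a signal transducer, to 0.81 for FN1, or fibronectin. Of 23 matrix and fibroblast genes 18 were above 0, with a median of 0.48, and TIMP2 and ITGB1 were members. Without the 3 pairs these medians were -0.01, 0.13 and 0.43. None of the actin genes was called in the mean of diets, with 5 of 19 at an unadjusted p under 0.05. On the TGF-beta list 1 gene was called lower, FST, the activin binder follistatin, with 3 of 14 at an unadjusted p under 0.05. The matrix list also had 1 called lower, POSTN, the matrix protein periostin, with 13 of 23 at an unadjusted p under 0.05. Of all probe sets 1.19% were called lower, and 23.4% had an unadjusted p under 0.05. None of the members was on the TGF-beta list.

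Endothelial markers had a median correlation of -0.33 over 8 genes. FLT1, a receptor for vascular endothelial growth factor, was lowest at -0.782, THBD, the thrombomodulin of the endothelial surface, was highest at 0.570, and CDH5 was at 0.071. Without the 3 pairs the median was -0.16, with 5 of 8 below 0. FLT1 was then at -0.623 and THBD at 0.482. NOS3, the endothelial nitric oxide synthase, was highest at 0.619, against 0.079 over all pairs. None was called in the mean of diets, with 5 of 8 at an unadjusted p under 0.05 against 23.4% of all probe sets. The mean level of the list differed between regenerated and native cells by -0.53 to -0.25 in the 3 pairs of largest ACTA2 shift, and by -0.33 to 0.25 in the other 17. No endothelial marker was a member.

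Markers of other cells were measured by few probe sets. Of 7 adipocyte markers 3 were measured, with a mean level of 4.65 to 6.61 in native and 4.80 to 8.14 in regenerated cells. PPARG, a regulator of fat cell formation, and FABP4, a fatty acid carrier, had correlations with ACTA2 of 0.658 and 0.665. Without the 3 pairs these were 0.536 and 0.445. LPL, the other measured marker, had 0.369, or 0.152 without the 3 pairs. PPARG and FABP4 were called higher in the mean of diets and LPL was not, against 1.48% of all probe sets called higher. Of 7 pericyte markers 2 were measured, with a mean level of 5.07 to 6.86 in native and 4.83 to 7.01 in regenerated cells, and with correlations of 0.668 for MCAM and -0.573 for ANGPT1, or 0.616 and -0.333 without the 3 pairs. Of 12 leukocyte markers 3 were measured, with a mean level of 5.36 to 8.01 in native and 5.14 to 7.97 in regenerated cells. Their correlations were -0.570 for CD14, 0.084 for TYROBP and 0.211 for LYZ, or -0.618, -0.100 and 0.381 without the 3 pairs. TNNI3, the 1 measured marker of heart muscle of 12, had 0.402. The 10 contractile genes had a mean level of 8.15 to 9.66 in native and 8.31 to 9.82 in regenerated cells. The part of any such cells in the members' shift was not tested.

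Interferon response genes had correlations of the opposite sign to those of the members. All 18 measured had a correlation with ACTA2 below 0, from -0.885 for USP18, which removes the ubiquitin-like ISG15, to -0.451 for B2M, the light chain of MHC class I, with a median of -0.83. Of 18 inflammatory adhesion and chemokine genes all were also below 0, from -0.818 for CXCL2 to -0.010 for TLR4, with a median of -0.71. A correlation below 0 need not mean a lower level in regenerated cells. CXCL12, at -0.470, was higher there in 19 of 20 pairs. In control 4, control 5 and FO 6 the mean interferon difference ran from -3.39 to -2.52, and in the other 17 pairs from -2.26 to 0.86 with a median of -0.02. The native interferon mean of those 3 pairs, 12.51 to 12.80, lay within the range of the others, 8.95 to 12.88, and their regenerated mean was 9.38 to 9.99, also within that of the others, 8.69 to 13.21. In these pairs the interferon response list was thus lower in the culture where the members were higher. Without the 3 pairs the median was -0.63 for the interferon list, with all 18 below 0, and -0.48 for the inflammatory list, with 16 of 18 below 0. None of the 18 interferon genes was called in the mean of diets, with 11 at an unadjusted p under 0.05 against 23.4% of all probe sets. Of the 18 inflammatory genes 1 was called higher and 0 lower, with 6 at an unadjusted p under 0.05. The correlation across all of these genes comes from the same 20 pairs, and its cause was not tested. The remaining lists had genes on both sides of 0. Of 10 cell cycle genes 8 were above 0, with a median of 0.28, or 0.44 without the 3 pairs. All 10 had a negative change in the mean of diets, with 1 called lower and 10 at an unadjusted p under 0.05. Of 10 genes of protein folding and secretion 4 were above 0, with a median of -0.32, or -0.22 without the 3 pairs. Of these 1 was called higher and 0 lower, with 2 at an unadjusted p under 0.05. The shares over all probe sets were 1.48% called higher, 1.19% called lower and 23.4% at an unadjusted p under 0.05.

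**Figure D5:**
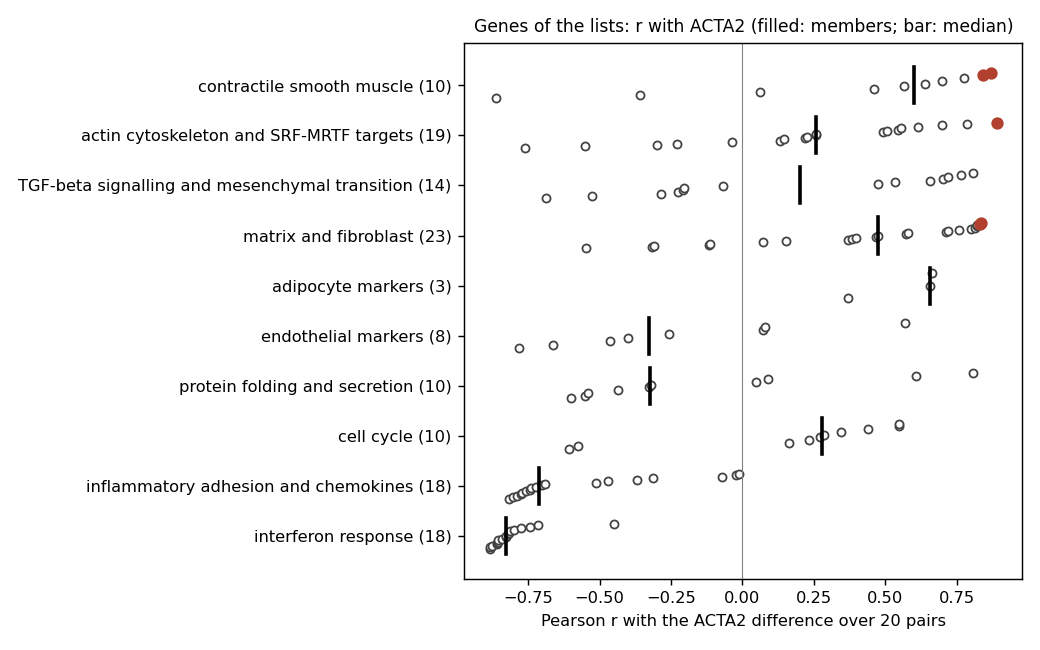
Pearson correlation with the ACTA2 difference over 20 pairs for each measured gene of 10 lists, 1 point per gene, with the number of genes in brackets, filled points for members and a black bar at the list's median. Contractile genes spread from -0.861 to 0.870, and all 18 interferon response genes lie below 0.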

How the data were processed

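Total RNA of 40 primary cultures was hybridised to Affymetrix porcine arrays. The deposited table holds linear intensities that the authors made with MAS5, per the submitters' processing notes (version not stated). Sample titles gave the groups and the pairs, and according to the design text both cultures of a pair came from the same animal. Names came from the deposited tables and RefSeq gene tables of the pig.

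Control probe sets of the manufacturer (124) were dropped, together with those at or under the 25th percentile of mean log2(signal + 16) over the 40 arrays, which left 17999. Linear models used limma 3.58.1 (lmFit, eBayes), run in R 4.3.3, two-sided, with Benjamini-Hochberg adjustment over all probe sets and a threshold of 0.05, and were tested on simulated data. The paired fit on 40 arrays had the pair as a block, and diets were compared on 20 pair means in 1 fit. Their p-values measure the spread between pairs. Correlations used Python 3.11.15 with numpy 2.4.6, pandas 2.3.3 and scipy 1.17.1, and figures matplotlib 3.10.9. Tables were read into R by the package data.table (1.17.8).

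The members, lists and tests were chosen with earlier results of these data known. Named genes were ACTA2, the 25 members of highest correlation with 1 symbol, members on a list, the 3 of highest and of lowest native level, 5 members with a title only, and the probe sets around rank 200. For list genes the examples were mainly those of highest and lowest correlation. A few genes that this rule names are not reported here. No sequences were used, so a planned motif search in promoters was not run. Alternatives were another pseudocount, no filter, quantile normalization, Spearman correlation, centring by diet, pairs left out and no block for the pair.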

Additional observations from a re-analysis of the deposited data

Results flagged for a closer look

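Single pairs stood apart from the others of their diet in 11 of 102 groups of paired differences examined. The measure was Dixon's criterion on the gap to the nearest pair. Chance meets it in about 1 group of 20 only where groups are independent and were not chosen by their values. Here the paired differences were all used to choose the members, which move with ACTA2 and with each other. The count is therefore not compared with that rate. ACTA2 itself differed by 5.92 in FO 6 and by 3.14 in FO 1. In FO pair 6, whose labels name different animals, 6 named members lay far above the other FO pairs. The differences there were 5.46 for LOC100154340, 3.64 for MAOB, 1.89 for CLU, 1.78 for PROS1, 1.75 for TIMP2 and 0.80 for SMARCA2. TIMP2 also stood apart in control 5, at 2.12. In CHL 5, where most members were higher without a rise in ACTA2, TAGLN was at 1.43 and the probe set titled as similar to transforming growth factor beta 1 induced transcript 1 at 0.821. In CHL 4, FRY was at -0.761 and TMEM5 at -0.892.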

How the results depend on the processing

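The ranking chose 147 to 192 of the 200 members again when 1 pair was left out at a time, and 108 members were chosen every time. It chose 85 again with the artery-named animals alone, which leaves out the 5 control pairs of unstated animal, 100 by Spearman correlation, 132 after centring by diet, and 115 without the 2 pairs farthest from the median ACTA2 shift. Without control 4, control 5 and FO 6, added after seeing the data, it chose 86. The members' median correlation over the pairs was 0.807 to 0.871 with 1 pair left out. It was 0.752 with the artery-named animals alone, 0.774 by Spearman, 0.753 without the 2 far pairs and 0.677 without those 3. The median in pair means was 0.622 to 0.704 with 1 pair left out. The count of members called in a pair mean comparison was 0 under every alternative run. Few probe sets of any kind were called there, so this 0 is not read as a result about the members. Without the pairs of degraded RNA, 13 of 17999 probe sets were called higher and 9 lower in CHL minus control. In FO minus control these were 9 and 1. The 11 members called in the paired comparison, beside 266 of 17999 probe sets called higher, became 0 beside 19 with no replicate block. With the paired test of the design text they became 5 beside 243. They became 7 beside 187 with a pseudocount of 1, and 7 beside 193 of 23999 with no filter on dim probe sets. With quantile normalization they became 15 beside 385, and without the pairs of degraded RNA 3 beside 128. They became 1 beside 3 with the artery-named animals alone, 3 beside 129 without FO pair 6 and 2 beside 44 without the 3 pairs. Calls over all probe sets thus changed too, and these counts are not read as a result about the members. With 1 pair left out the count of members called ranged from 2 to 41. It was 41 without control 8, 29 without FO 5, 25 without control 3, and 2 to 7 without each of 13 others. Of the named genes, 0 reversed a called direction. Their log2 changes lost a call in 65 reruns, gained one in 20 and kept their side of the threshold in 872. Their correlations with ACTA2 moved by more than the jackknife error in 105 reruns and by less in 855. The cause was not tested. Precision is limited by the number of pairs.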
